A study of Mus musculus with 9 samples.

Results

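The genes described here are targets and feedback regulators of canonical Wnt signalling, measured in mouse small intestinal organoids. Members were every probe set of the array whose annotated gene symbol was Axin2, Myc, Sp5, Rnf43, Znrf3, Tcf7, Tcf7l2, Lef1, Nkd1 or Notum. The rule goes by name, and the names were chosen with earlier results of these data known. The rule found 18 probe sets of 9 genes among 34945 probe sets with 1 gene symbol, and no probe set carried the symbol Tcf7, which was not analysed here. Organoids of the small intestine, closed epithelial cultures, were kept for 6 days and fell into 3 groups of 3 arrays. They were left without treatment, given a Tgfbeta inhibitor aimed at TgfbR1/2 at 20 uM, or given Tgfbeta1 ligand at 0.04 ng/mL, both for 5 days from day 1. The compound, its vehicle, the mouse strain and the culture behind each replicate are not stated in the labels. The p-values below therefore reflect array-to-array variation that could be purely technical. Each value is a MAS5 signal, the brightness of a set of short probes near the 3 prime end of a transcript, on a linear scale.

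In canonical Wnt signalling a Wnt protein binds a Frizzled receptor and an Lrp co-receptor, the complex that destroys beta-catenin is halted, and beta-catenin joins TCF and LEF proteins on DNA to activate target genes. Several targets encode brakes on the same pathway: Axin2 rebuilds the destruction complex, Rnf43 and Znrf3 remove Frizzled from the membrane, and Notum inactivates Wnt outside the cell. In the small intestine the pathway is known for maintaining stem cells and dividing progenitors at the crypt base. Ligands of the TGF-beta family signal separately, through serine and threonine kinase receptors and Smad proteins.

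The promoters of Sp5, Axin2 and Rnf43 are shown because the RNA of these genes rose most with the ligand, by the brightest probe set, among members that have a window in the RefSeq promoter table. Windows run from 250 bases before to 50 bases after an annotated start on build GRCm38.p6, 5' to 3' along the gene, all on the plus strand. Capitals mark CTTTGA or CTTTGT, the core letters that TCF and LEF proteins bind, or their reverse TCAAAG or ACAAAG, together with the longer CTTTGATC, which contains CTTTGA.
Sp5, chr2:70474673-70474972: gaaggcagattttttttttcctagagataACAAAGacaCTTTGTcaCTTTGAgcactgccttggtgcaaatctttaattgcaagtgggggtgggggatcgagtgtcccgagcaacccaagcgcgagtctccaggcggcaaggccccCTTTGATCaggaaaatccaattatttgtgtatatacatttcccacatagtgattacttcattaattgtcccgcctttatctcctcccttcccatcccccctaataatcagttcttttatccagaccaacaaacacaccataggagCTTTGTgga
Axin2, chr11:108920099-108920398: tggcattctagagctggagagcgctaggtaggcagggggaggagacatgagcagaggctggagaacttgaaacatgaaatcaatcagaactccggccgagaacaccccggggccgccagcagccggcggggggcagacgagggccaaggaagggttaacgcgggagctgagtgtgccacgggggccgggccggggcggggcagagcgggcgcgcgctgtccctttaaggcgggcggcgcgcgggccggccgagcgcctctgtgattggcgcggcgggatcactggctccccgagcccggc
Rnf43, chr11:87662837-87663136: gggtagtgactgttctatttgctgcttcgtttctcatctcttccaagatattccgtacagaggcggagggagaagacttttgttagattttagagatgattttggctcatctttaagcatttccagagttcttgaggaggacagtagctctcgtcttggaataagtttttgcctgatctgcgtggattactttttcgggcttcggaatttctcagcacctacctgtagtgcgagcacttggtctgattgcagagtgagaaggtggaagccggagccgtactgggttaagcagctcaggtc
The Sp5 window held 5 core matches, 2 of CTTTGA and 3 of CTTTGT. One of them, from base -104 to -97 before the start, was the 8-letter CTTTGATC, which 0.938% of 32851 windows of this length held on either strand. The windows of Axin2 and Rnf43 shown here held no core match, as compared with a match in 31.2% of all windows. Of the 10 members 7 had at least 1 window, 13 in all. Besides Sp5, only another start of Lef1, with 3 core matches, and another start of Tcf7l2, with 1, held the core letters. A match describes the letters and not a bound site, and its absence says only that these letters are not in the window.

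With the ligand, Axin2, Rnf43, Znrf3, Sp5, Myc and Lef1 were higher than in untreated organoids and Tcf7l2 was lower. Under the inhibitor Axin2, Rnf43, Znrf3 and Myc were lower and no member rose, when 20.2% of genes were called higher. Counted by its brightest probe set, 4 of 9 genes fell under the inhibitor, when 22.9% of 12941 genes were called lower there. With the ligand 6 rose, when 13.3% of genes were called higher, and 1 fell, when 8.31% were called lower. In ligand against inhibitor arrays 5 were higher and 1 was lower, with 31.9% and 22.4% of genes called in these directions. The median log2 change of the 9 genes was -0.34 under the inhibitor, 0.45 with the ligand and 0.92 between the treated groups, beside -0.01, 0.05 and 0.07 over all genes. These come from limma on log2(signal + 16), a call meaning an adjusted p under 0.05, and the same 3 untreated arrays serve as controls for both treatments. In whole organoids fewer cells of a type and less RNA per cell cannot be told apart. Lef1 entered the test mainly through its ligand arrays, so the call of Lef1 is no support for the count.

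**Figure D1:**
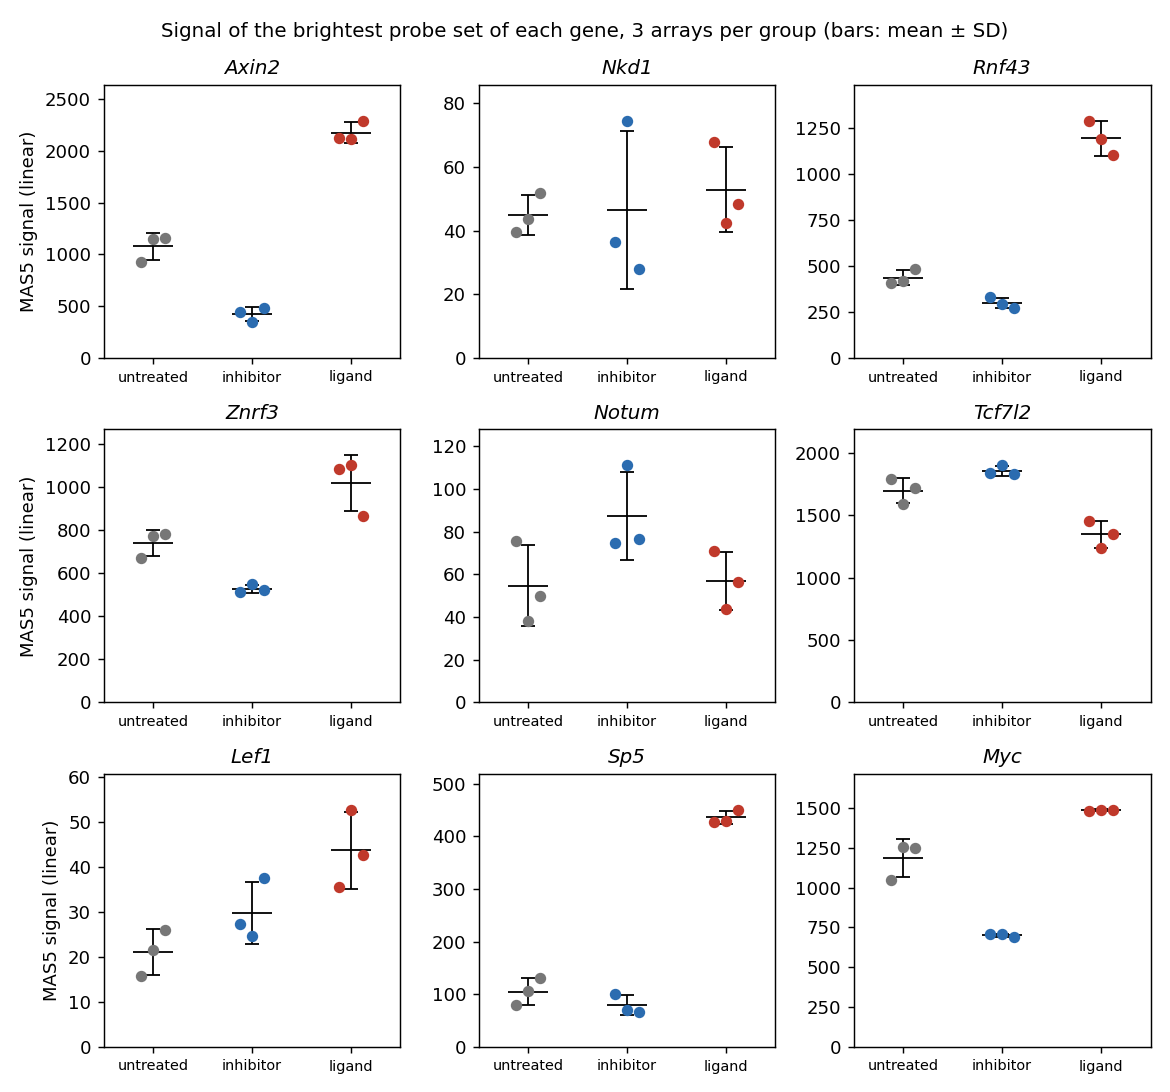
MAS5 signal (linear axis from 0) of the brightest probe set of each of the 9 genes on the 9 arrays, with points for arrays and bars for the mean and SD of 3 arrays. Axin2, Rnf43, Znrf3 and Myc step up from inhibitor to untreated to ligand without overlap, Sp5 is high in the ligand arrays, and Tcf7l2 is low there.

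By the brightest probe set of Axin2, Myc, Rnf43 and Znrf3, every inhibitor array lay below every untreated array and every untreated array below every ligand array. Such an order without overlap held for 9.4% of the 12941 genes. Tcf7l2 alone among the members had the reverse order by its brightest set, which 6.76% of genes showed. In the dimmer sets of Axin2, Znrf3 and Tcf7l2 at least 1 neighbouring pair of groups overlapped. In the other 4 genes, Lef1, Nkd1, Notum and Sp5, at least 1 neighbouring pair of groups overlapped.

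Axin2, the scaffold protein that limits beta-catenin and is widely used as a readout of the pathway, had signals of 931.6, 1150.7 and 1161.0 in untreated arrays. The inhibitor arrays read 443.4, 349.5 and 478.7, and the ligand arrays 2127.5, 2114.0 and 2295.9. The 3 groups did not overlap. Axin2 fell by 1.32 ± 0.11 (SE) on the log2 scale under the inhibitor (adjusted p 2.7e-06) and rose by 1.01 ± 0.11, or 2.01-fold, with the ligand (adjusted p 7.77e-05). Between ligand and inhibitor arrays the difference was 5.03-fold (adjusted p 1.06e-08). Its dimmer probe set, 1421341_at, had means of 40.5 ± 10.9 (SD, n = 3) untreated, 16.3 ± 2.6 with inhibitor and 65.5 ± 12.5 with ligand. That set fell under the inhibitor by 0.79 ± 0.20 (adjusted p 0.00657), and its change with the ligand was 0.53 ± 0.20 (adjusted p 0.0836, and 0.0492 without untreated replicate 3). Every inhibitor array of this set lay under the filter level, at 14.1, 15.7 and 19.2. The size of its fall is thus uncertain: the change ran from -1.24 to -0.37 over the alternatives, each still called. Both sets ordered the group means alike.

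Nkd1, which binds Dishevelled and dampens the pathway, has 4 probe sets, and they disagreed. In the brightest set the ligand arrays overlapped the others, while in each of the other sets they lay above all other arrays. The brightest, 1440446_at, read 39.4, 43.5 and 51.9 in untreated, 36.4, 74.6 and 27.97 in inhibitor and 67.9, 42.3 and 48.3 in ligand arrays. Its groups overlapped throughout, with a change of 0.16 ± 0.25 with the ligand (adjusted p 0.717), which lay between 0.01 and 0.27 when 1 array was left out. Averaged over its tested probe sets, Nkd1 was called higher in ligand arrays, by 0.79 against untreated (adjusted p 0.00553) and by 0.79 against inhibitor (adjusted p 0.00175). That average includes sets 1429506_at and 1429507_at, which passed the filter on low signals only or mainly through ligand arrays. Neither had an untreated array above the filter level, so the call of the average supports no count. Set 1429506_at read 25.8, 16.3 and 9.24 in untreated, 11.7, 15.6 and 12.7 in inhibitor and 67.2, 82.8 and 81.0 in ligand arrays. There the ligand arrays stood apart from all 6 others, with a change of 1.52 ± 0.21 (2.86-fold, adjusted p 0.000344) against untreated. Under the inhibitor the same set changed by -0.15 ± 0.21 (adjusted p 0.629). It passed the filter on low signals only through the ligand arrays, and its other arrays lay under the filter level of 25.9 to 32, so its fold is understated and its call alone supports no count.

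The remaining Nkd1 sets were dim. Set 1429507_at had means of 25.1 ± 0.58 untreated, 30.9 ± 6.5 with inhibitor and 50.6 ± 9.1 with ligand, and rose with the ligand by 0.69 ± 0.18 (adjusted p 0.0202). Leaving out untreated replicate 1 (0.0575) or 2 (0.0525), or ligand replicate 1 (0.0512) or 2 (0.081), ended the call. Set 1417278_a_at, under the filter and not tested, read 4.66, 4.32 and 14.9 in untreated, 22.56, 6.8 and 6.59 in inhibitor and 31.2, 22.64 and 24.9 in ligand arrays. In both sets the ligand arrays lay above all others, though in 1417278_a_at only just above the highest inhibitor array.

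**Figure D2:**
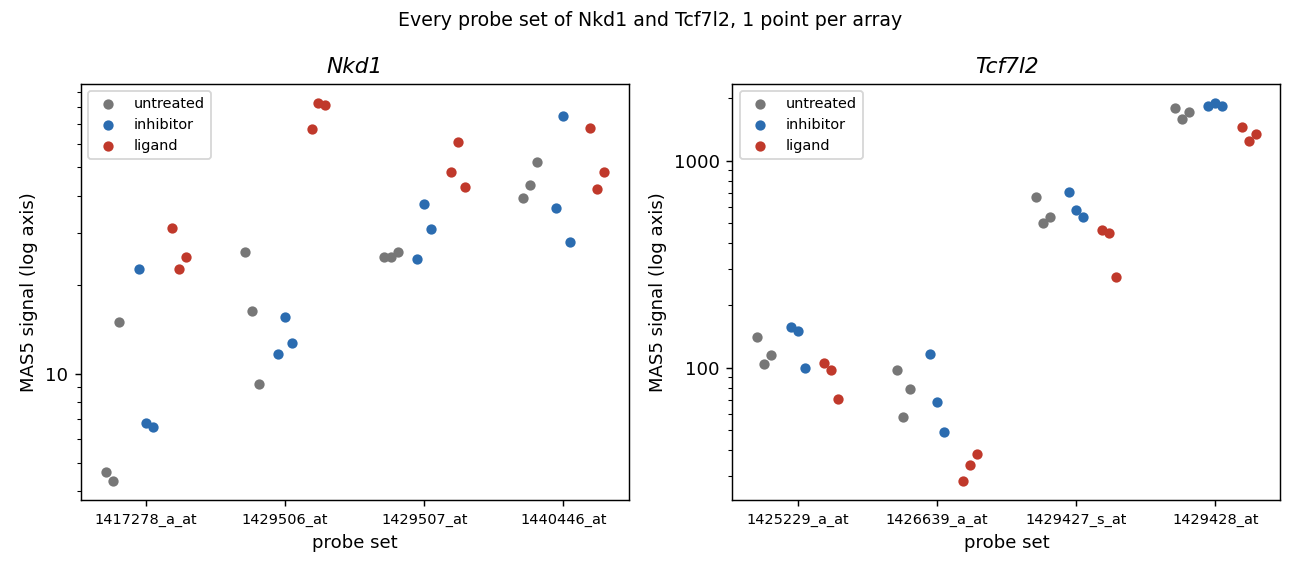
MAS5 signal (log axis) of every probe set of Nkd1 and Tcf7l2, 1 point per array, coloured by group. In Nkd1 the ligand arrays of sets 1429506_at, 1429507_at and, only just, 1417278_a_at lie above the others, while those of 1440446_at do not. In Tcf7l2 the ligand arrays tend to the low side of each set.

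Rnf43 and Znrf3, membrane ubiquitin ligases that clear Frizzled receptors and are held back by R-spondin bound to Lgr receptors, moved the same way. Rnf43 read 406.6, 417.8 and 485.1 in untreated, 328.6, 290.7 and 273.7 in inhibitor and 1291.1, 1191.2 and 1101.4 in ligand arrays. Every ligand array was above 1100, while the highest of the others read 485.1. Rnf43 fell by 0.53 ± 0.10 under the inhibitor (adjusted p 0.000891) and rose by 1.42 ± 0.10, or 2.68-fold, with the ligand (adjusted p 2.54e-06). Znrf3 read 668.8, 770.2 and 778.8 in untreated, 513.8, 547.4 and 519.2 in inhibitor and 1081.3, 1100.4 and 866.2 in ligand arrays. Its groups did not overlap, although ligand replicate 3 was the lowest of the ligand arrays. Znrf3 fell by 0.47 ± 0.10 under the inhibitor (adjusted p 0.00205) and rose by 0.45 ± 0.10, or 1.36-fold, with the ligand (adjusted p 0.00751). Its other set, 1437646_at, lay about the filter level with means of 24.6, 31.1 and 35.8 in untreated, inhibitor and ligand arrays, and was not called in any comparison. Averaging both sets of Znrf3 brought the inhibitor change to -0.11 (adjusted p 0.515).

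Notum, the secreted enzyme that strips the lipid from Wnt proteins, read 75.7, 38.3 and 50.1 in untreated, 74.8, 111.3 and 76.5 in inhibitor and 70.9, 43.7 and 56.7 in ligand arrays. The inhibitor arrays held the highest signal, and untreated replicate 1 overlapped them. The change was 0.57 ± 0.22 under the inhibitor (adjusted p 0.0584) and 0.07 ± 0.22 with the ligand (adjusted p 0.881), so neither passed. Without untreated replicate 1 the inhibitor change was 0.77 and passed (adjusted p 0.0176). It also passed with quantile normalization (0.031), median centring (0.0336), the mean of probe sets (0.0442) and 1 probe set per gene (0.0483), in a range of 0.0176 to 0.217. Ligand against inhibitor arrays differed by -0.50 ± 0.22 without overlap (adjusted p 0.075), and that passed with quantile normalization (0.0179), median centring (0.0174) or without ligand replicate 1 (0.0499). None of the other 8 genes had its highest group mean in the inhibitor arrays except Tcf7l2.

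Tcf7l2, the TCF protein that the intestinal epithelium chiefly relies on, read 1788.8, 1588.7 and 1720.3 in untreated, 1842.4, 1904.3 and 1828.5 in inhibitor and 1458.2, 1238.8 and 1348.2 in ligand arrays. The ligand arrays were the lowest of all 9. Tcf7l2 fell by 0.33 ± 0.08 with the ligand (adjusted p 0.00975), and its change under the inhibitor was 0.13 ± 0.08 (adjusted p 0.207). Its other 3 sets gave -0.35, -0.91 and -0.53 with the ligand. Of these 1426639_a_at, with means of 78.1 ± 19.7 untreated and 33.6 ± 5.0 with ligand, passed (adjusted p 0.0215). Leaving out untreated replicate 1 (0.0939) or 3 (0.0578), or ligand replicate 1 (0.0727) or 2 (0.0502), ended it. Set 1429427_s_at (adjusted p 0.0571) and set 1425229_a_at (0.219) did not pass, although the former passed without ligand replicate 1 (0.0393), with quantile normalization (0.0327), median centring (0.00787), the filter at the 60th percentile (0.0497) and the replicate block (0.0162). Against the inhibitor arrays the ligand arrays were called lower in each of the 4 sets, with changes of -0.46, -0.49, -0.86 and -0.62. The call of 1425229_a_at (adjusted p 0.0387) was lost without inhibitor replicate 1 (0.143) or 2 (0.129) and without ligand replicate 2 (0.0523) or 3 (0.141). Using no filter (0.073), no intensity trend (0.0537) or a fit of these groups alone (0.0502) ended that call too. That of 1429427_s_at (adjusted p 0.0105) was lost without inhibitor replicate 1 (0.051).

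Lef1, a partner of beta-catenin best known from lymphocytes, hair and tumours, was dim. Its set 1454734_at read 15.8, 21.6 and 26.1 in untreated, 27.3, 24.6 and 37.5 in inhibitor and 35.6, 52.8 and 42.7 in ligand arrays. No untreated array and 1 inhibitor array passed the filter level, as compared with all 3 ligand arrays, which lay above every untreated array. The change with the ligand was 0.68 ± 0.20 (adjusted p 0.0327). Leaving out untreated replicate 1 (0.117) or 2 (0.0702), or ligand replicate 2 (0.115) or 3 (0.0615), ended the call, as did quantile normalization (0.0602), median centring (0.0743) and fitting only these groups (0.0511). Over all alternatives its adjusted p ran from 0.0177 to 0.117. Its other set, 1421299_a_at, had means of 6.78, 10.1 and 14.4 and was not tested.

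Sp5, a zinc finger factor induced directly by beta-catenin, read 79.3, 105.9 and 130.1 in untreated, 101.3, 70.4 and 67.0 in inhibitor and 428.2, 428.8 and 451.0 in ligand arrays. The ligand arrays lay far above all others, while the remaining groups overlapped. Sp5 rose by 1.92 ± 0.17, or 3.79-fold, with the ligand (adjusted p 1.04e-05), and its inhibitor change was -0.34 ± 0.17 (adjusted p 0.13). Without untreated replicate 1 (-0.50, adjusted p 0.0305) or inhibitor replicate 1 (-0.49, 0.0345) the latter passed, and without untreated replicate 3 it was -0.19 (0.423). Myc, the transcription factor that drives growth and proliferation, read 1046.9, 1257.4 and 1249.7 in untreated, 706.8, 708.1 and 688.8 in inhibitor and 1479.4, 1490.2 and 1490.8 in ligand arrays. Its groups did not overlap, and the treated arrays lay close together within each group. Myc fell by 0.74 ± 0.08 under the inhibitor (adjusted p 1.26e-05) and rose by 0.33 ± 0.08, or 1.26-fold, with the ligand (adjusted p 0.0113). The ligand change of Myc was 0.22 with median centring (adjusted p 0.16), in a range of 0.00601 to 0.16.

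**Figure D3:**
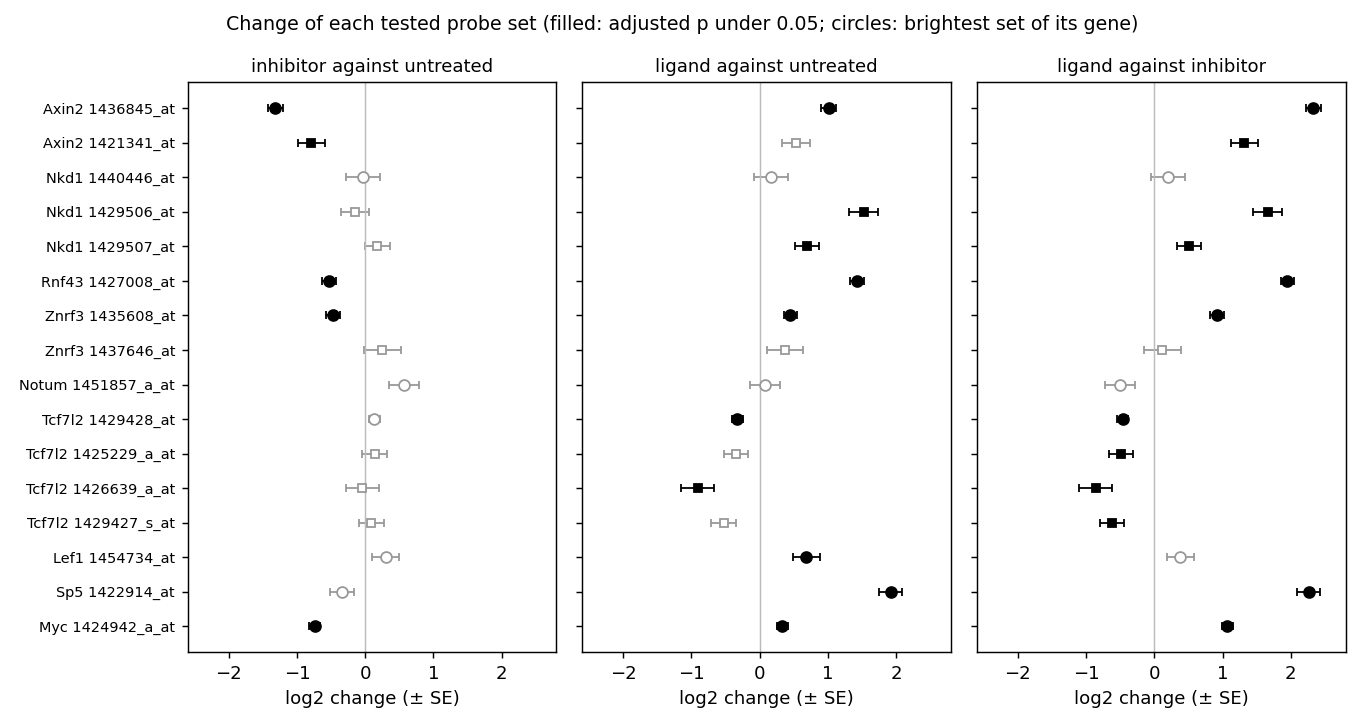
Log2 change ± SE of the 16 tested probe sets in the 3 comparisons, with circles for the brightest set of a gene, squares for its other sets and filled symbols for adjusted p under 0.05. Sp5, Rnf43, Axin2 and Nkd1 set 1429506_at are farthest to the right with the ligand, while Axin2 and Myc are farthest to the left under the inhibitor.

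The sum of both changes from untreated, 0 where inhibitor and ligand act equally and oppositely, was above 0 for Sp5 (1.58 ± 0.29, adjusted p 0.00251) and Rnf43 (0.89 ± 0.17, adjusted p 0.00324). For Rnf43 the rise with the ligand thus exceeded the fall under the inhibitor, while the inhibitor change of Sp5 did not pass. Over all 12941 genes this sum was called above 0 in 11.3% and below 0 in 9.83%. For Axin2 it was -0.32 ± 0.20 (adjusted p 0.319) and for Znrf3 -0.03 ± 0.17 (adjusted p 0.936). Myc, at -0.41 ± 0.13 (adjusted p 0.0547), was called below 0 without untreated replicate 1 (0.0141), with the filter at the 60th percentile (0.0406), the mean of probe sets (0.0343) and 1 probe set per gene (0.036).

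Another scaling of the arrays moved these comparisons. Centring each array on its median shifted the median change of all probe sets by -0.11 with the ligand and by -0.15 between ligand and inhibitor arrays. The share of higher calls among all calls with the ligand went from 61.6% to 34.3%, and between the treated groups from 59.6% to 41.5%. On that scale the ligand changes were 1.81 for Sp5, 1.31 for Rnf43, 0.89 for Axin2, 0.33 for Znrf3 and -0.44 for Tcf7l2, each still called. The calls of Myc (0.22, adjusted p 0.16) and Lef1 (0.57, adjusted p 0.0743) were lost. Quantile normalization brought the first share to 50.3% and the second to 49.5%. Under both scalings each called change of the 9 genes kept its direction.

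Signals of several cell type markers also differed between the groups. Epithelial markers were present throughout: all 10 epithelial markers were tested and their summed signal ran from 82233 to 99116 over the 9 arrays. The 9 stem cell markers, Axin2 among them, had summed signals of 7512 to 7977 in inhibitor, 24208 to 27191 in untreated and 31635 to 34609 in ligand arrays. The highest mean of a single marker was 2532 in inhibitor, 12861 in untreated and 14648 in ligand arrays, so 1 gene weighs heavily in these sums. Lgr5, Ascl2, Rgmb and Tnfrsf19 are also on the Wnt lists below, so the markers are no separate readout. Of the 9 stem cell markers 8 fell and 1 rose under the inhibitor, and 6 rose with the ligand. Of all genes 22.9% were called lower and 20.2% higher under the inhibitor. With the ligand 13.3% of all genes were called higher and 8.31% lower. The 7 markers of dividing cells summed to 9847 to 10233 in inhibitor, 17867 to 18970 in untreated and 18986 to 20793 in ligand arrays. All 7 fell under the inhibitor. With the ligand 2 of these 7 rose, 1 fell and 4 were not called, and their median log2 change was 0.01. The 8 Paneth cell markers on the array summed to 16247 to 17640, 17832 to 23087 and 26201 to 33319 in inhibitor, untreated and ligand arrays. Of the 7 that were tested 3 fell under the inhibitor and 3 rose with the ligand. The 9 enterocyte markers ran the other way, at 70989 to 86137 in inhibitor, 61263 to 68031 in untreated and 47530 to 54709 in ligand arrays, and 5 rose under the inhibitor while 5 fell and 1 rose with the ligand. The part of these shifts in the results for the Wnt genes was not tested.

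Most markers of cells from outside the epithelium gave little signal. Of fibroblast markers 6 of 10 lay under the filter level on every array, as did 7 of 9 leukocyte and 5 of 6 endothelial markers, though no marker was at 0. Fibroblast markers summed to 210 to 284 in inhibitor, 330 to 365 in untreated and 357 to 430 in ligand arrays, and leukocyte markers to 226 to 262, 161 to 178 and 127 to 166. The highest mean of a single fibroblast marker was 86.8, 204.5 and 242.8 in the same order, and of a leukocyte marker 140.3, 66.2 and 57.5. Single genes thus weigh heavily in these sums. Endothelial markers summed to 76 to 119, 85 to 106 and 72 to 96. Their part in the results was not tested. The 3 prime to 5 prime log2 ratio of the beta-actin controls, a sign of RNA quality, was 0.18 to 0.24 in inhibitor, 0.37 to 0.43 in untreated and 0.40 to 0.58 in ligand arrays. The inhibitor arrays were the lowest and the other groups overlapped. Its part in the results was not tested, while the Gapdh ratio lay between -0.29 and -0.25 on all 9 arrays.

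The rest of the pathway was read through 5 lists, ordered from ligand to target. Of 25 genes for Wnt proteins, R-spondins and ligand export 10 were tested. Of these 2 rose and 1 fell under the inhibitor, 1 rose with the ligand and the other 15 lay under the filter. The shares of all genes called were 20.2% and 22.9% under the inhibitor and 13.3% higher with the ligand. Wls, which carries Wnt proteins to the cell surface, rose under both treatments, by 0.51 ± 0.10 with the inhibitor (adjusted p 0.00143) and by 0.94 ± 0.10 with the ligand (adjusted p 4.86e-05). Porcn, the acyltransferase that lipidates Wnt, fell by 0.67 ± 0.19 under the inhibitor (adjusted p 0.0134). Its call was lost without untreated replicate 2 (0.053) or 3 (0.0579) or inhibitor replicate 1 (0.0599). Wnt4 rose by 0.71 ± 0.19 under the inhibitor (adjusted p 0.01) from a mean of 33.9 ± 9.96, but its change was 0.35 when its probe sets were averaged (adjusted p 0.203). Rspo2, an R-spondin, was lower in ligand than in inhibitor arrays (-0.84 ± 0.27, adjusted p 0.0227), a call lost without inhibitor replicate 1 (0.0792) or 2 (0.091) and without ligand replicate 1 (0.0784) or 3 (0.0858). Wnt3, the Wnt known to be made by Paneth cells, had means of 14.4 ± 1.4, 3.30 ± 2.40 and 19.4 ± 15.8 in untreated, inhibitor and ligand arrays. Only 1 of the 9 arrays, of the ligand group, passed the filter level, so Wnt3 was not tested.

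Of 18 receptor genes 16 were tested. Under the inhibitor 4 rose and 5 fell, near the 20.2% higher and 22.9% lower of all genes. With the ligand 8 rose and 2 fell, beside 13.3% and 8.31% of all genes, and the list medians were -0.08 and 0.32. Fzd2, a Frizzled receptor, read 75.8, 78.6 and 79.7 in untreated, 26.2, 30.9 and 38.6 in inhibitor and 282.0, 223.7 and 217.2 in ligand arrays, so that the groups were apart. It fell by 0.98 ± 0.14 under the inhibitor (adjusted p 0.000175) and rose by 1.44 ± 0.14 with the ligand (adjusted p 2.95e-05). Lgr5, the R-spondin receptor that marks crypt stem cells, followed the same order, with means of 2542 ± 306 untreated, 1574 ± 18.03 with inhibitor and 4236 ± 216 with ligand. Fzd7, with changes of -0.36 ± 0.08 (adjusted p 0.00365) and 0.42 ± 0.08 (adjusted p 0.00314), did as well. Fzd5 fell with the ligand by 0.59 ± 0.07 (adjusted p 0.000165), and Fzd8 rose under the inhibitor by 1.11 ± 0.15 (adjusted p 8.77e-05), so single Frizzled genes moved in either direction.

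Of 22 further inhibitors and corepressors on the array 16 were tested. Under the inhibitor 5 rose and 2 fell, when 20.2% and 22.9% of all genes were called in these directions. With the ligand 2 rose, beside 13.3% of all genes, and the calls numbered 1 to 3 with 1 array left out and 1 to 4 under other settings. Tle3, a corepressor that sits on TCF proteins, fell by 0.44 ± 0.10 (adjusted p 0.00288) and rose by 0.44 ± 0.10 (adjusted p 0.00671). Tle1, of the same family, rose under the inhibitor by 0.37 ± 0.07 (adjusted p 0.00109). Sfrp5, a secreted Wnt antagonist, fell under the inhibitor by 1.24 ± 0.24 (adjusted p 0.00148), from a mean of 70.2 ± 7.0 to 22.2 ± 13.1, and 1 inhibitor array lay under the filter level. Ctnnbip1, which blocks beta-catenin from TCF proteins, was lower in ligand than in inhibitor arrays by -0.56 ± 0.09 (adjusted p 0.000153), and by -0.21 when its probe sets were averaged (adjusted p 0.0611). The rise of Tle2 with the ligand (0.58 ± 0.18, adjusted p 0.0416) was lost under 12 of its 20 alternatives, among them the loss of any 1 untreated array.

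In the machinery between receptor and nucleus, of 22 tested genes 1 rose and 1 fell under the inhibitor, when 20.2% and 22.9% of all genes were called in these directions, and 2 rose with the ligand, beside 13.3% of all genes. With 1 array left out the list held 1 to 5 calls under the inhibitor, the highest without ligand replicate 3, and 1 to 3 with the ligand. The casein kinase gene Csnk1d rose under the inhibitor by 0.46 ± 0.09 (adjusted p 0.00188), and Csnk1e rose with the ligand by 0.48 ± 0.10 (adjusted p 0.00566), though by 0.30 when its probe sets were averaged (adjusted p 0.123). Amer1, a membrane adaptor of the destruction complex, rose with the ligand by 0.59 ± 0.14 (adjusted p 0.0135), a call lost without untreated replicate 2 (0.0537) or ligand replicate 2 (0.0573). Its fall under the inhibitor (-0.39 ± 0.14, adjusted p 0.0458) was lost under 11 of 21 alternatives, among them 6 that left out 1 array. Axin1, the constitutive relative of Axin2, had changes of -0.19 ± 0.08 (adjusted p 0.0947) and 0.17 ± 0.08 (adjusted p 0.206), and was higher in ligand than in inhibitor arrays by 0.35 ± 0.08 (adjusted p 0.00335, and 0.20 with adjusted p 0.0708 under median centring).

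Of 22 other genes on the array that are known as Wnt targets 19 were tested. Under the inhibitor 10 fell and 3 rose, when 22.9% of all genes were called lower and 20.2% higher. With the ligand 14 rose and 1 fell, beside 13.3% and 8.31% of all genes, and the medians were -0.37 and 0.66. Ascl2, a stem cell transcription factor, read 490.8, 575.6 and 600.1 in untreated, 148.2, 152.2 and 163.0 in inhibitor and 1196.5, 1246.0 and 1256.6 in ligand arrays. The groups were far apart, and between treated groups the difference was 2.87 ± 0.09 (adjusted p 3.26e-10). Sox9, a crypt transcription factor, fell by 0.82 ± 0.10 (adjusted p 3.03e-05) and rose by 0.98 ± 0.10 (adjusted p 2.63e-05), and Sox4 fell by 1.02 ± 0.08 and rose by 0.60 ± 0.08. The cyclin gene Ccnd1 fell by 1.63 ± 0.06 under the inhibitor and rose by 0.46 ± 0.06 with the ligand (adjusted p 0.000417). Ephb3, a receptor that positions cells along the crypt, rose by 1.30 ± 0.11 with the ligand (adjusted p 7.77e-06), and Jun by 1.40 ± 0.10 (adjusted p 3.1e-06). Cd44, a hyaluronan receptor, rose under both treatments, by 0.47 ± 0.11 with the inhibitor (adjusted p 0.00587) and by 0.94 ± 0.11 with the ligand (adjusted p 0.000125).

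**Figure D4:**
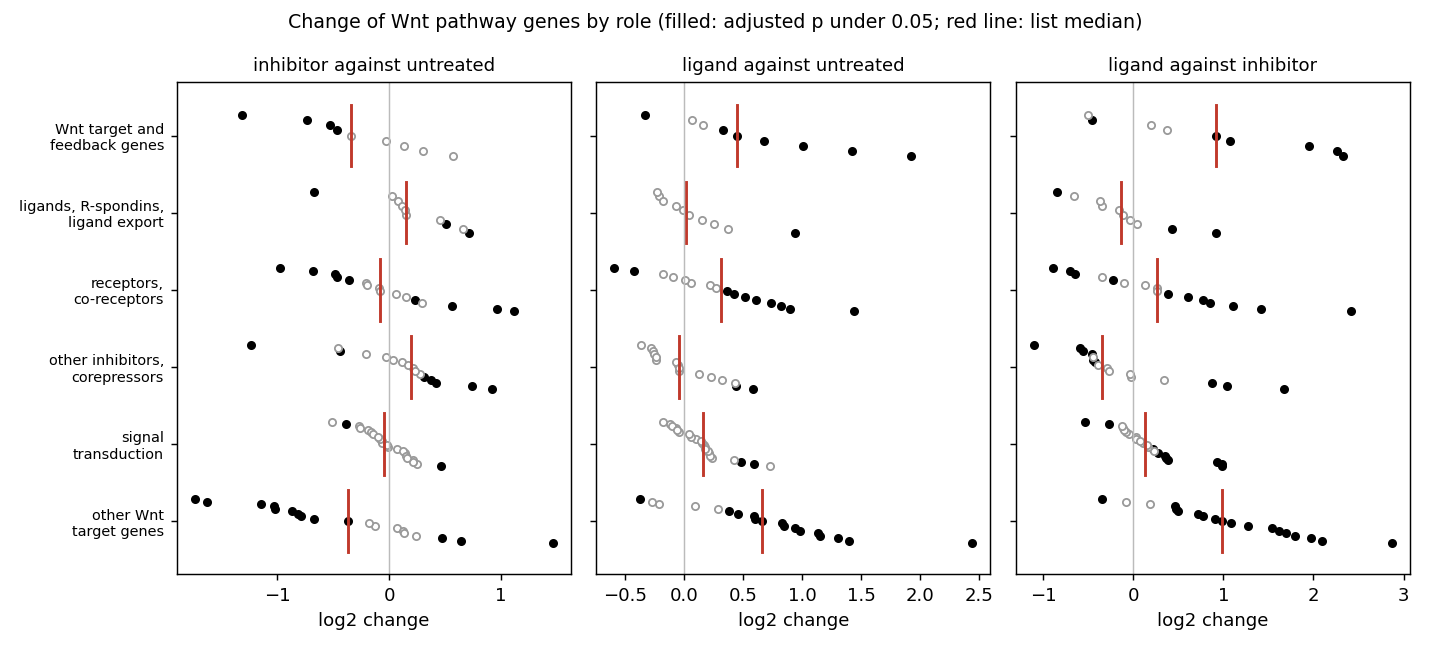
Log2 change of the tested genes of each list in the 3 comparisons, 1 point per gene, filled where adjusted p was under 0.05, with a red line at the list median. The other Wnt targets have medians of -0.37, 0.66 and 0.98 from left to right, while signal transduction stays between -0.04 and 0.16.

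The genes whose pattern over the 9 arrays was most like that of Axin2 were found by the root mean square difference of log2 values centred on each gene's mean, among 12940 others. They were Igf1r (0.128), Dclk1 (0.133), Ripor2 (0.146), Cdca7 (0.165) and Nav1 (0.165), each by its brightest probe set. By that set Ripor2 changed by -1.40 under the inhibitor, but by -0.20 when its probe sets were averaged (adjusted p 0.209). Dclk1 had a mean of 27.2 ± 4.9 in inhibitor arrays, about the filter level. Igf1r, a growth factor receptor, had means of 254.4 ± 10.1 untreated, 85.9 ± 8.3 with inhibitor and 508.9 ± 18.7 with ligand. Cdca7, a gene of dividing and stem cells, had means of 1282 ± 155, 552 ± 50.9 and 2722 ± 110 in the same order. Among the members Rnf43 was nearest to Axin2 (0.363), followed by Sp5 (0.48), Myc (0.53) and Znrf3 (0.606). They ranked only 119, 310, 426 and 778 among the 12940 genes, so many genes outside the members lay nearer. Tcf7l2 (1.154) and Notum (1.235) were the farthest members.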

How the data were processed

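RNA was measured on Affymetrix Mouse Genome 430 2.0 arrays, 9 in all, labelled by the MessageAmp Premier method per the labels. The deposited values are MAS5 intensity signals on a linear scale, per the submitters' processing notes, and the scaling step is not stated there. The 2% trimmed mean was 350 on each array, so differences in total RNA between arrays cannot be seen. MAS5 subtracts a mismatch signal, which leaves dim values noisy: 28.9% lay at or below 16. The number of arrays limits the precision.

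Gene symbols came from the annotation of the array: 34945 of 45101 had 1 symbol. Those above the 40th percentile of their array on at least 3 arrays were tested, 23887 sets of 12941 genes. This kept 16 of 18 member sets. A gene is counted by its set of highest mean, an _x_at set only where it has no other. Signals became log2(signal + 16), which understates changes of dim genes. limma 3.58.1 in R 4.3.3 fitted 1 mean per group over 9 arrays (6 residual degrees of freedom, intensity trend, 2-sided, Benjamini-Hochberg over the 23887 sets at 0.05), and was tested on simulated data. Over these sets 37.8% were called under the inhibitor, 17.6% with the ligand and 49.4% between the treated groups.

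Members, lists, tests and the rule for named genes were chosen with earlier results of these data known. The rule names all members, up to 3 called genes of smallest p per list and comparison, 6 fixed genes and the 5 most like Axin2. Alternatives were 2 other offsets, 2 filters, 2 normalizations, no trend, a replicate block, 2-group fits, 2 rules for several probe sets, added unnamed probe sets and leaving out each array. Promoter letters are RefSeq's on GRCm38.p6.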

Additional observations from a re-analysis of the deposited data

How the results depend on the processing

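Of the 9 member genes 4 were called under the inhibitor, and 4 to 6 when 1 array was left out and 4 to 5 under other settings. With the ligand 7 became 6 to 7 and 5 to 8, and between the treated groups 6 became 6 to 7 under either. The 7 include Lef1, which entered the test mainly through its ligand arrays. The 8, reached with the mean of probe sets, include Nkd1, which that mean also called between the treated groups. It takes in Nkd1 sets that passed the filter only or mainly through ligand arrays, so these calls of Lef1 and Nkd1 support no count. Of all genes 43.2%, 21.6% and 54.3% were called in either direction. Thus 4 of 9 under the inhibitor is near the share of all genes, and 6 of 9 between the treated groups is little above it. The calls of Axin2, Rnf43, Sp5 and Tcf7l2, in the comparisons where each was called, held under every alternative run. Direction turned only in changes that were not called. For Nkd1 under the inhibitor (-0.03) it turned with median centring (0.01) and the mean of probe sets (0), and leaving out 1 array gave -0.34 to 0.18, -0.02 to 0.50 between the treated groups and -0.17 to 0.35 for the sum of both changes. For Notum with the ligand (0.07) it turned with quantile normalization (-0.04) and median centring (-0.05), and without 1 array it lay at -0.11 to 0.27. The sum of both changes of Znrf3 (-0.03) was 0 with quantile normalization, 0.30 with the mean of probe sets and -0.17 to 0.08 without 1 array. Among other probe sets, Tcf7l2 1426639_a_at under the inhibitor was 0.02 with quantile normalization, 0 with median centring and -0.32 to 0.19 without 1 array. Tcf7l2 1429427_s_at was at -0.02 to 0.21 and Nkd1 1429506_at at -0.33 to 0.04 there without 1 array. Znrf3 1437646_at between the treated groups was -0.03 with median centring and -0.04 to 0.33 without 1 array. With the ligand, Csnk1d was 0.10 with the mean of probe sets and -0.13 to 0.04 without 1 array, and Rspo2 -0.49 to 0.03. The cause was not tested. The labels do not say whether the replicate numbers pair the arrays. Deviations of same-numbered arrays correlated at -0.08 to 0.07 and those of other pairs at -0.08 to 0.09. Of 9 arrays 3 were closest to one of their own number. These values cannot show whether same-numbered arrays shared a culture. With the replicate block the member counts stayed at 4, 7 and 6, and 3906 probe sets were called with the ligand instead of 4208. Of all probe sets 9040 were called under the inhibitor and 11806 between the treated groups, as compared with 5837 and 7186 with 1 set per gene and 5570 and 7026 with their mean, where 12941 genes were tested. Without untreated replicate 1 the ligand calls were 2712. The sum of both changes was called in 4049 sets, in 2596 without untreated replicate 1 and in 2500 without untreated replicate 2. Signals of Lef1 and of Nkd1 sets 1429506_at and 1429507_at lay under the filter level on every untreated array, which limits their folds.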
